A study of Mus musculus with 24 samples.

Results

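The interferon response genes described here are 7 genes of the mouse: Rsad2, Mx1, Ifit1, Ifit3, Isg15, Irf7 and Ifih1. They were chosen by gene symbol, each symbol matched 1 of the 30705 genes in the mRNA tables, and their levels played no part in the choice. The tables come from whole ocular lenses of C57BL/6 mice at 6 ages, 2 before birth and 4 after it. They are embryonic days 15 (E15) and 18 (E18), the day of birth (P0) and postnatal days 3 (P3), 6 (P6) and 9 (P9). The mice carried no labelled mutation and received no labelled agent, so age is the sole labelled difference between the groups. Each age had 2 replicates, A and B, and each replicate was a separate pool of lenses taken with forceps from 8 to 9 pups, so that p-values measure the spread between pools.

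Interferons are secreted proteins that cells release when they sense foreign or misplaced nucleic acid. Receptors pass the signal through Janus kinases to transcription factors that bind a short element, the interferon-stimulated response element, in front of a set of target genes. The 7 genes are textbook members of that set: they act against viral replication (Rsad2, Mx1, Ifit1, Ifit3), modify proteins (Isg15), sense double-stranded RNA (Ifih1) or amplify the signal (Irf7). The lens is an avascular tissue of epithelium and fibre cells, fed before and shortly after birth by a transient net of hyaloid vessels with resident macrophages.

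In the developing lens these genes did not move together. Rsad2 was 23.7-fold higher at P9 than at E15 by the ratio of mean RPKM (reads per kilobase of transcript and per 1e6 reads of the library), and Mx1, from very low levels, was also higher. Ifit3 instead peaked at E18, where it was 9.35-fold higher than at E15, and was lower at P9 than at P0. Isg15 and Irf7 passed the test in none of the 8 comparisons between ages, and Ifit1 and Ifih1 stayed too low to be tested. None of the 7 was abundant: the highest level in any library was 4.73 RPKM, for Rsad2 in P9 pool A.

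Promoter windows from RefSeq (build GRCm38.p6, 250 bases before to 50 bases after an annotated start) were found for 6 of the 7 genes, Mx1 being the exception. For Ifit3 and Irf7 the start used lies inside the annotated span of the gene and not at its end. The core of the response element was searched on both strands as GAAA, any 2 bases (NN) and GAAA again, counting overlapping matches. It occurred in 5 of the 6 windows, those of Rsad2, Ifit1, Ifit3, Isg15 and Ifih1, and in 1126 of all 32817 RefSeq windows of that length (3.43%). The Irf7 window, chr7:141266375-141266674 on the minus strand, held no match, which applies to the start used for it only. The windows below are printed because they carry between 0 and 3 matches and belong to genes with different courses. Matches are in capitals, written on the gene's own strand, so a match on the opposite strand reads TTTC at its left end.
Rsad2: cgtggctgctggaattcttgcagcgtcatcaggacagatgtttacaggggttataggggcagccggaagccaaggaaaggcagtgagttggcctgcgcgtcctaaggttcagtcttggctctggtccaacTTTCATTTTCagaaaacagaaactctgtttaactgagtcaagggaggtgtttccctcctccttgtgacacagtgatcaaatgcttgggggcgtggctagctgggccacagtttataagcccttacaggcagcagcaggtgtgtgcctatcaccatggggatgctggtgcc
Ifit3: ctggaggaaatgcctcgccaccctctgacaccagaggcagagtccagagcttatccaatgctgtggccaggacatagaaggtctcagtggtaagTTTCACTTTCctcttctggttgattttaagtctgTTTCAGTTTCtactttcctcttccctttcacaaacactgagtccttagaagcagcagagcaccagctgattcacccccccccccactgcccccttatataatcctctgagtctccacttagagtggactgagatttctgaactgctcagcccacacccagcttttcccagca
Isg15: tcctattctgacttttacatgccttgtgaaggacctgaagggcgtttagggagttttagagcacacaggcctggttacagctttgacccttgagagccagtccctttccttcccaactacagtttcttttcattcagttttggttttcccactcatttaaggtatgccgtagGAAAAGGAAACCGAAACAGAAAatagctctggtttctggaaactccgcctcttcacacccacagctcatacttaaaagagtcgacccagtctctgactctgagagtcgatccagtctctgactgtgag
Irf7: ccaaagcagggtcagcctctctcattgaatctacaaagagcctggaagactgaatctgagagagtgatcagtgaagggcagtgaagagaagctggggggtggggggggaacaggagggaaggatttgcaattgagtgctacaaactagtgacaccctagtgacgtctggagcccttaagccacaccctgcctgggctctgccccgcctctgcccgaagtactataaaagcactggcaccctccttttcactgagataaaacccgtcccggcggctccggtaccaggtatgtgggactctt
The Rsad2 window lies at chr12:26456403-26456702 on the minus strand and has 1 match, 120 to 111 bases upstream of the start, reading GAAAATGAAA on the opposite strand. The Ifit3 window, chr19:34583279-34583578 on the plus strand, has 2 matches, GAAAGTGAAA at 156 to 147 bases and GAAACTGAAA at 122 to 113 bases upstream of the start used. This whole window lies inside the annotated span of Ifit3, chr19:34583119-34588982. The Ifit1 window, chr19:34640639-34640938 on the plus strand and not printed, holds the same pair of motifs, GAAAGTGAAA at 104 to 95 bases and GAAACTGAAA at 85 to 76 bases upstream. In the Isg15 window, chr4:156200769-156201068 on the minus strand, 3 matches overlap: GAAAAGGAAA from base 78, GAAACCGAAA from base 72 and GAAACAGAAA from base 66 upstream, the last ending at base 57. The match in Ifih1 lies after the start, in the transcribed part of the window. The shorter core GAAANNGAA was again found in 5 of the 6 windows and in 8.55% of all windows, whereas TTCNNNGAA, a palindrome of other cytokine-induced promoters, was found in 0 of the 6 and in 8.29% of all windows. A match is a description of these letters and not evidence of binding.

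The 12 mRNA libraries held an estimated 20.3 to 43.8 units of 1e6 reads, read from the step between low values, so that 1 RPKM of a transcript of 1 kilobase rests on 20.3 reads in the shallowest library (P9 pool B) and on 43.8 in the deepest (E18 pool B). All 14 lens markers were detected in every library, and their summed level was between 67870 and 161900 RPKM. The 16 crystallin genes took between 27.5% (E15 pool A) and 61.3% (P9 pool A) of summed RPKM, and because RPKM is relative to the library this goes with a lower value of most other genes: the median log2 fold change over the 14405 tested genes was -0.54 in P9 minus E15, -0.20 in P9 minus P0 and -0.41 in P0 minus E18. The E15 pools differed from each other by a median of 0.35 on the log2 scale, against 0.11 to 0.15 between the pools of any other stage. In whole-lens RNA, fewer cells that express a gene and less of its RNA per cell cannot be told apart. Genes that reached 1 RPKM in at least 2 libraries were tested, which 5 of the 7 did (Rsad2, Mx1, Ifit3, Isg15 and Irf7). Fold changes are differences of log2(RPKM + 1), which understate the change of low genes. They were tested with limma and called at an adjusted p below 0.05.

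Rsad2 encodes viperin, a radical SAM enzyme that makes a chain-terminating nucleotide from CTP and so stops viral RNA synthesis. The gene lies at chr12:26442743-26456452 (GRCm38.p6). Its level was 0.137 and 0.215 RPKM in the E15 pools, 0.484 and 0.435 RPKM at E18, 1.60 and 2.005 RPKM at P0, 1.98 and 3.42 RPKM at P3, 4.21 and 4.34 RPKM at P6, and 4.73 and 3.60 RPKM at P9 (pool A, then pool B). All 8 postnatal pools were above all 4 embryonic pools, and the pools of P6 and P9 overlapped. Rsad2 was the member with the highest level from P3 on, and in its highest library it ranked 6649th of the 30705 genes.

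Rsad2 rose in P9 against E15 lenses, with means of 4.17 ± 0.795 and 0.176 ± 0.0552 RPKM (SD, n = 2 each) and a log2 fold change of 2.13 ± 0.205 (SE, limma adjusted p = 2.3e-05). The step at birth also passed the test, with 1.80 ± 0.287 RPKM at P0 against 0.460 ± 0.0346 RPKM at E18 and a log2 fold change of 0.94 ± 0.205 (limma adjusted p = 0.00508). After birth the level was higher again at P9 than at P0, by 0.88 ± 0.205 on the log2 scale (limma adjusted p = 0.0242). That last call rests on every pool of both ages: without any 1 of the 4 the adjusted p was between 0.0659 and 0.151. The neighbouring gene Cmpk2, 12664 bases away and coinduced with Rsad2 by interferon in many cells, had no rise that passed the test. It fell at birth, to 0.690 ± 0.132 RPKM at P0 against 1.64 ± 0.211 RPKM at E18, by 0.64 on the log2 scale (limma adjusted p = 0.0156), though not after median-ratio rescaling (adjusted p = 0.111).

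Mx1 encodes a dynamin-like GTPase that blocks orthomyxoviruses in mice with an intact gene. In C57BL/6 mice the gene is defective, and RefSeq lists it at chr16:97447035-97462906 as a transcribed pseudogene. It had 0.070 and 0.038 RPKM at E15, 0.213 and 0.166 RPKM at E18, 0.216 and 0.473 RPKM at P0, 0.450 and 0.182 RPKM at P3, 0.906 and 1.035 RPKM at P6, and 0.909 and 1.16 RPKM at P9. The 4 pools of P6 and P9 were above all others, and the P0 and P3 pools overlapped. Mx1 rose in P9 against E15 lenses, with means of 1.035 ± 0.178 and 0.054 ± 0.0226 RPKM (SD, n = 2 each) and a log2 fold change of 0.95 ± 0.173 (limma adjusted p = 0.000967). Its rise in P9 against P0 lenses, 0.60 ± 0.173 on the log2 scale, passed only narrowly (limma adjusted p = 0.0489). It no longer passed with a pseudocount of 0.1 or 0.5 (adjusted p = 0.0839 and 0.0542), or without any 1 pool of E18, P0, P3, P6 or P9 (adjusted p from 0.0574 to 0.22).

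Ifit1 encodes a protein that binds viral RNA lacking the host's cap methylation and keeps it from being translated. The gene, at chr19:34640889-34650009, lies within the annotated span of its relative Ifit1bl1, and how reads on both genes were counted is not stated. Its level was 0.044 and 0.236 RPKM at E15, 0.283 and 0.147 RPKM at E18, 0.571 and 0.394 RPKM at P0, 0.535 and 0.470 RPKM at P3, 0.429 and 0.359 RPKM at P6, and 0.729 and 0.632 RPKM at P9. At the estimated depth these were between 3 reads (E15 pool A) and 53 reads (P9 pool A). All 8 postnatal pools lay above all 4 embryonic pools. Ifit1 was under the filter and has no test; without the filter the difference of P9 minus E15 was 0.56 on the log2 scale (limma adjusted p = 0.00262). Ifit1bl1, listed in the tables as Gm14446, rose in P0 against E18 lenses, with 1.74 ± 0.909 and 0.314 ± 0.0361 RPKM and a log2 fold change of 1.02 ± 0.233 (limma adjusted p = 0.00612).

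Ifit3 encodes a partner of the same family, which in humans stabilises IFIT1 on its RNA targets. It lies at chr19:34583119-34588982, 51906 bases from Ifit1. Its level was 0.423 and 0.249 RPKM at E15, 2.96 and 3.325 RPKM at E18, 2.20 and 1.40 RPKM at P0, 1.74 and 1.96 RPKM at P3, 0.742 and 0.645 RPKM at P6, and 0.454 and 0.761 RPKM at P9. The E18 pools were above all others, the P0 and P3 pools overlapped, and the pools of P6 and P9 were low but still above both E15 pools. Ifit3 was the highest of the 7 genes at E18.

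Ifit3 rose in E18 against E15 lenses, with 3.14 ± 0.260 and 0.336 ± 0.123 RPKM (SD, n = 2 each) and a log2 fold change of 1.63 ± 0.186 (limma adjusted p = 0.000996). It fell in P0 against E18 lenses, by 0.58 ± 0.186 on the log2 scale (limma adjusted p = 0.0253), but that call was lost after median-ratio rescaling (a log2 fold change of -0.22, adjusted p = 0.344), after quantile normalization, with a pseudocount of 0.1 and without E18 pool A, E18 pool B or P0 pool B (adjusted p from 0.0675 to 0.173). In P9 against P0 lenses it fell by 0.79 ± 0.186 (0.608 ± 0.217 against 1.80 ± 0.560 RPKM, limma adjusted p = 0.0246), a call lost without P0 pool A, P9 pool A or P9 pool B (adjusted p from 0.0681 to 0.15). The related gene Ifit3b, listed in the tables as I830012O16Rik, had the same high point: it rose in E18 against E15 lenses, with 2.07 ± 0.654 and 0.246 ± 0.0566 RPKM and a log2 fold change of 1.28 ± 0.199 (limma adjusted p = 0.00492). Where Ifit3 and Ifit3b share reads, these can be placed on either gene, so their levels are uncertain singly.

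Isg15 encodes a ubiquitin-like protein that is joined to other proteins and is also secreted. It lies at chr4:156199424-156200818 and overlaps the predicted gene Gm46878. Its level was 0.915 and 0.329 RPKM at E15, 0.782 and 1.90 RPKM at E18, 0.455 and 1.007 RPKM at P0, 0.746 and 0.847 RPKM at P3, 0.877 and 0.251 RPKM at P6, and 0.576 and 0.130 RPKM at P9. The pools of each pair of stages next to each other in rank overlapped, and the highest library, E18 pool B, stood apart from E18 pool A. These values rest on few reads, from 2 in P9 pool B to 63 in E18 pool B. The log2 fold change was 0.51 ± 0.309 in E18 minus E15 (limma adjusted p = 0.336) and -0.26 ± 0.309 in P9 minus E15 (limma adjusted p = 0.479). A change of Isg15 was not detectable with 2 pools per stage and this spread between pools.

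Irf7 encodes the transcription factor that amplifies interferon production once a cell has been alerted. It lies at chr7:141263183-141266499. Its level was 0.438 and 0.347 RPKM at E15, 1.10 and 0.981 RPKM at E18, 0.928 and 1.245 RPKM at P0, 1.24 and 1.03 RPKM at P3, 0.631 and 0.227 RPKM at P6, and 0.717 and 0.352 RPKM at P9. The 6 pools of E18, P0 and P3 were above the 6 pools of E15, P6 and P9. Irf7 passed the joint test over all stages (limma F = 4.62, adjusted p = 0.0273) but no single comparison: the log2 fold change was 0.55 ± 0.194 in E18 minus E15 (limma adjusted p = 0.105) and -0.59 ± 0.194 in P6 minus P3 (limma adjusted p = 0.15).

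Ifih1 encodes MDA5, a cytosolic sensor of long double-stranded RNA. It lies at chr2:62595618-62646255. Its level was 0.223 and 0.098 RPKM at E15, 0.332 and 0.231 RPKM at E18, 0.172 and 0.088 RPKM at P0, 0.060 and 0.189 RPKM at P3, 0.127 and 0.075 RPKM at P6, and 0.158 and 0.115 RPKM at P9. Both E18 pools were above all others and no library reached 0.5 RPKM, so Ifih1 was not tested.

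**Figure D1:**
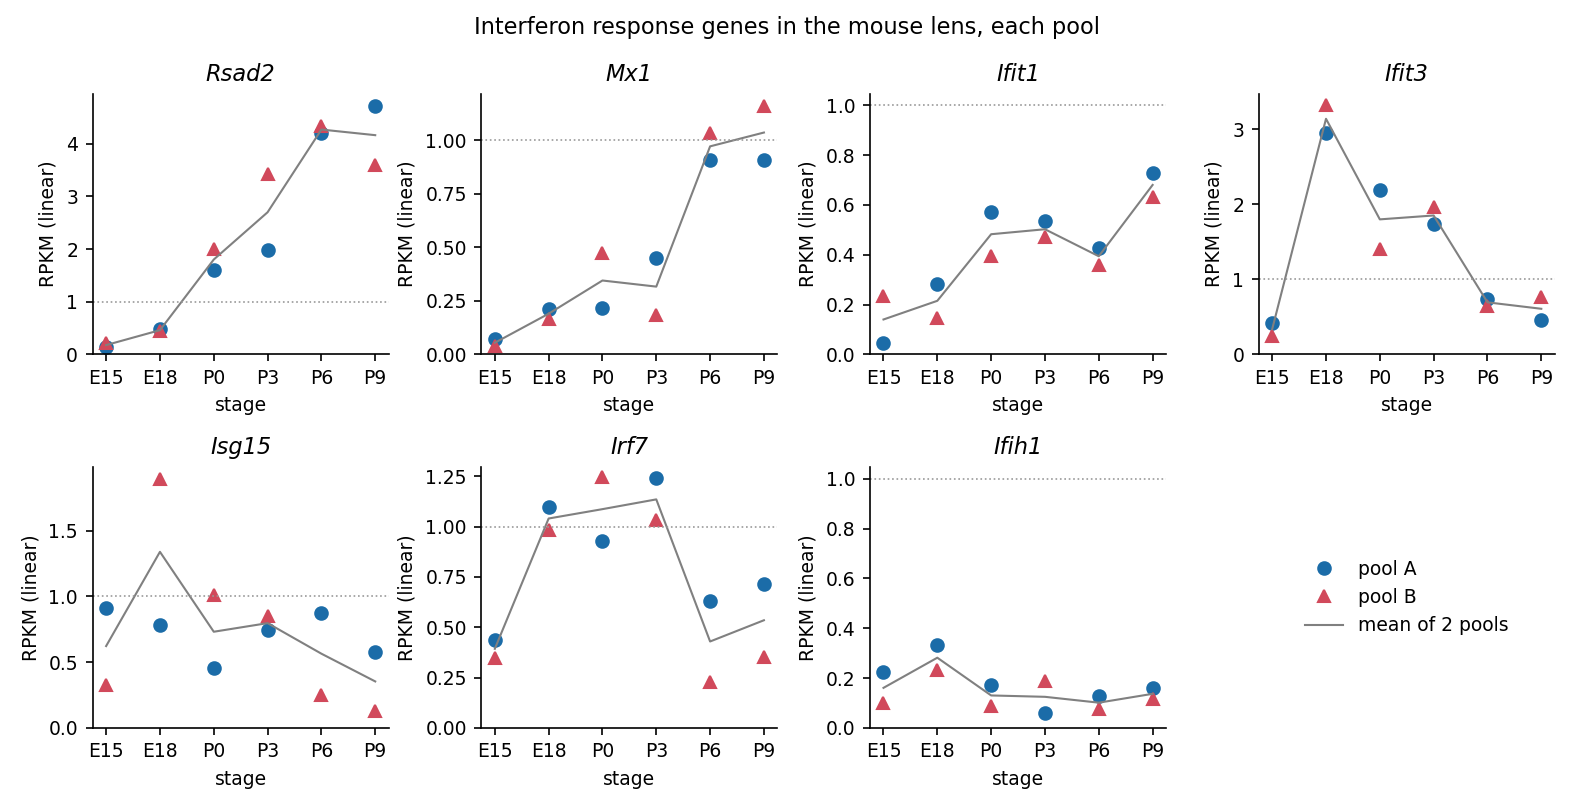
RPKM (linear vertical axes that start at 0) of each of the 7 genes at the 6 stages; circles are pool A, triangles are pool B, lines join the means of 2 pools and the dotted line marks 1 RPKM. Rsad2 and Mx1 were highest at P6 and P9, Ifit3 was highest at E18 (2.96 and 3.325 RPKM), and Ifih1 stayed below 0.5 RPKM.

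Across the 5 tested genes, 4 passed the joint test over stages (Rsad2, Ifit3, Mx1 and Irf7), beside 74.2% of all tested genes. In P9 minus E15, 2 were called higher, Rsad2 and Mx1, beside 8.65% of all genes, and 0 were called lower, beside 55.4% of all genes (0 lower also at an unadjusted p below 0.05). Rsad2 reached 1 RPKM only in postnatal pools and Mx1 only in P6 pool B and P9 pool B, so both entered the tested set through the ages at which they are high. The same holds for Ifit3 and Irf7, which reached 1 RPKM only in pools of E18, P0 and P3. These counts, and those between neighbouring stages below, are therefore no support for a rise or another change of the set. In the postnatal minus the embryonic mean, the same 2 genes were called higher, beside 10.2% of all genes, with log2 fold changes of 1.64 ± 0.126 for Rsad2 (limma adjusted p = 3.35e-06) and 0.54 ± 0.106 for Mx1 (limma adjusted p = 0.000928); 0 were called lower, beside 67.4%. In P9 minus P0, Rsad2 and Mx1 were called higher, beside 2.65% of all genes, and Ifit3 lower, beside 9.00%. The comparisons P9 minus E15 and P9 minus P0 share the P9 pools, so their calls are not independent.

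Between neighbouring stages, 1 of the 5 was called higher in E18 minus E15 (Ifit3, beside 5.48% of all genes) and 0 lower (beside 3.67%). In P0 minus E18, Rsad2 was called higher, beside 7.72% of all genes, and Ifit3 lower, beside 45.1%. None of the 5 was called by limma in P3 minus P0 (0.354% of all genes higher, 0.167% lower), in P6 minus P3 (0.215% higher, 0.861% lower) or in P9 minus P6 (0.0764% higher, 0.0347% lower). In P6 minus P3, 4 of the 5 had an unadjusted limma p below 0.05: Rsad2 and Mx1 with log2 fold changes of 0.54 and 0.59, Ifit3 and Irf7 with -0.75 and -0.59. In P3 minus P0 and in P9 minus P6 that count was 0. The share of all genes at an unadjusted p below 0.05 is not given, so these unadjusted counts have no background and are no result about the set.

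**Figure D2:**
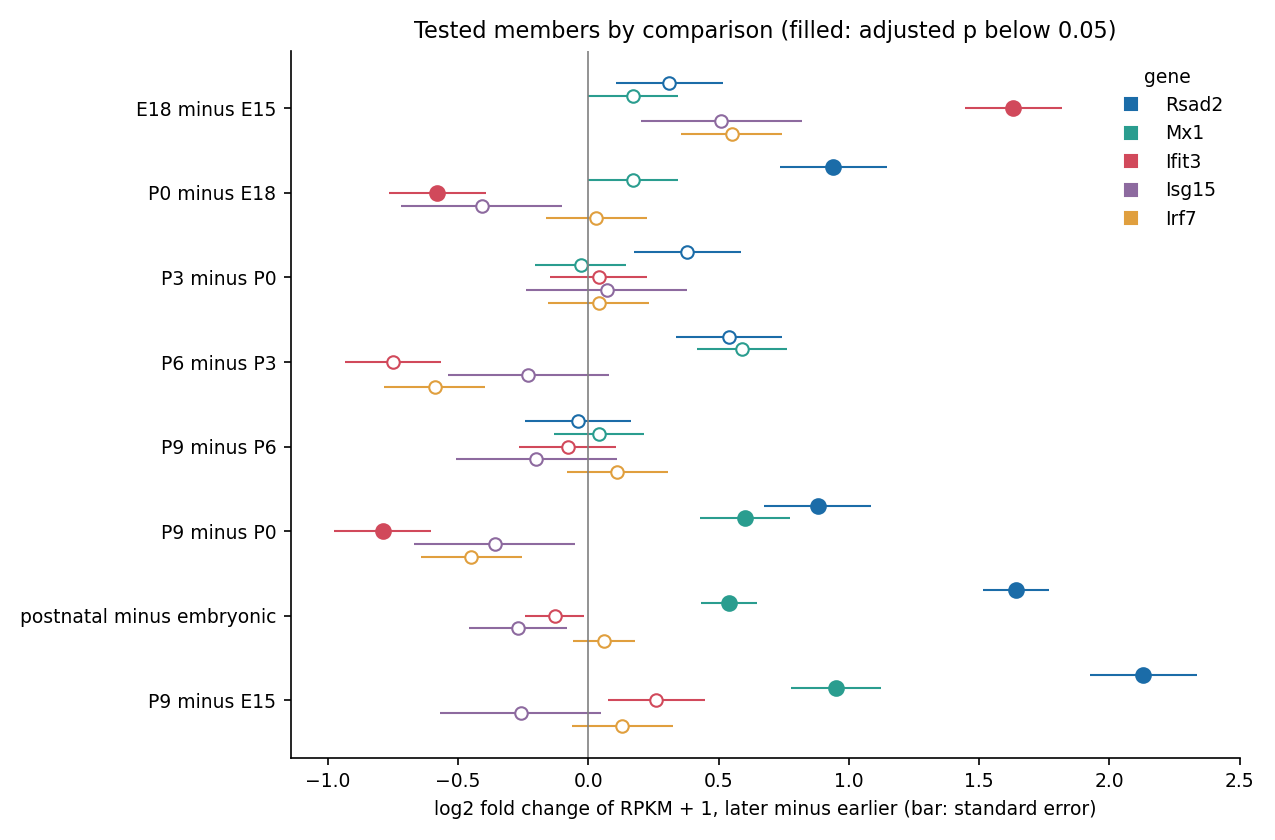
Differences of log2(RPKM + 1), later minus earlier, for the 5 tested genes in 8 comparisons, with standard errors; filled points have a limma adjusted p below 0.05. Rsad2 reached 2.13 and Mx1 0.95 in P9 minus E15, whereas Ifit3 had 1.63 in E18 minus E15 and -0.79 in P9 minus P0.

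Over the 12 libraries, Pearson's r of log2(RPKM + 1) was 0.84 between Rsad2 and Mx1, 0.80 between Rsad2 and Ifit1, 0.77 between Ifit3 and Irf7 and -0.20 between Rsad2 and Ifit3. These are descriptions without a test, since the libraries share stages and the same shift of the whole table. The 3 tested genes most like Rsad2, among those with a mean of at least 1 RPKM, were Ivns1abp (r = 0.983), Oxt (0.983) and Col4a4 (0.982), a chain of collagen IV in basement membranes. Col4a4 averaged 0.1, 0.977, 8.90, 21.1, 37.4 and 47.5 RPKM from E15 to P9. For Mx1 they were Lrrtm3 (0.943), Tff2 (0.923) and Smap2 (0.915), and for Isg15 AK154275 (0.898), C1qtnf6 (0.884) and Rhbdf1 (0.881). For Ifit3 they were Wfikkn2 (0.966), Pkp1 (0.960), a desmosomal plaque protein, and Slc16a10 (0.955), an aromatic amino acid transporter. Irf7 was most like Erlec1 (0.955), Lipa (0.930), the lysosomal acid lipase, and Ifitm3 (0.920), an interferon-induced membrane protein that restricts viral entry. Of these 15 genes, Ifitm3 alone is on the interferon lists.

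The direction of the other interferon-induced antiviral effectors in P9 minus E15 depended on the scaling. Of 49 in the tables, 29 were tested; in P9 minus E15, 1 was called higher, 8 were called lower and 20 were not called. Their median log2 fold change was -0.33 beside -0.54 over all tested genes. After median-ratio rescaling, which divides each library by its median ratio to a common reference, the split was 5 higher and 2 lower with a median of -0.02, and over all genes it was 20.6% higher and 20.6% lower, beside 8.65% and 55.4% on the deposited scale. The call higher was Lgals3bp, a secreted glycoprotein, with 5.21 ± 0.653 RPKM at P9 against 1.04 ± 0.231 RPKM at E15 and a log2 fold change of 1.61 ± 0.176 (limma adjusted p = 4.6e-05). Among those that fell were Ifi27l2a, 0.235 ± 0.332 against 2.04 ± 0.989 RPKM (limma adjusted p = 0.00615, and 0.0535 without P9 pool B), and Samhd1, a nucleotide hydrolase that starves viruses of building blocks, 2.24 ± 0.122 against 7.01 ± 1.84 RPKM (limma adjusted p = 0.000255). Both Ifi27l2a and Samhd1 also fell after rescaling.

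In E18 minus E15, the comparison in which Ifit3 rose, 7 of the 29 antiviral effectors were called higher and 0 lower, beside 5.48% and 3.67% of all genes, with a median of 0.52 beside 0.05 over all genes. At an unadjusted p below 0.05 the counts were 17 and 0, and the share of all genes at that threshold is not given. After rescaling 6 were higher and 0 lower, beside 4.71% and 3.77% of all genes. The 7 called higher on the deposited scale were Ifit3b, Ifitm3, Bst2, Ifi35, Rtp4, Parp12 and Lgals3bp, of which Ifi35 no longer passed after rescaling (adjusted p = 0.0592). Ifitm3 had 9.10 ± 1.47 RPKM at E18 against 2.98 ± 1.41 RPKM at E15 (limma adjusted p = 0.0122), and Bst2, the tethering protein tetherin, 10.1 ± 1.42 against 5.11 ± 1.79 RPKM (limma adjusted p = 0.0425). Of 3 tested guanylate-binding and immunity-related GTPases, 2 rose between these ages: Gbp7, with 1.41 ± 0.356 against 0.412 ± 0.0955 RPKM, and Irgm1, with 2.10 ± 0.482 against 0.746 ± 0.239 RPKM (limma adjusted p = 0.0183 and 0.0179). In P0 minus E18, 1 of the 29 effectors was called higher and 11 lower, beside 7.72% and 45.1% of all genes, and 3 higher and 4 lower after rescaling, beside 18.5% and 16.6%. In P9 minus E15, 0 of the 3 GTPases passed the test (0 also at an unadjusted p below 0.05) and 1 was higher after rescaling, beside 20.6% higher over all genes. Irgm1 was at 0.674 ± 0.0827 RPKM at P9 against 0.746 ± 0.239 RPKM at E15 (limma adjusted p = 0.794). Genes of these lists named here for E18 minus E15 were chosen as the calls of that comparison, after their values were seen.

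The receptor and signalling chain had 11 tested genes, of which 8 fell in P9 minus E15, beside 55.4% of all genes, with a median of -0.74 beside -0.54. After rescaling 2 fell, beside 20.6% lower over all genes. Among the transcription factors of the chain, Stat2 had 2.35 ± 0.194 RPKM at P9 against 3.74 ± 1.54 RPKM at E15 (limma adjusted p = 0.0744) and Irf9 3.13 ± 0.184 against 4.95 ± 1.45 RPKM (limma adjusted p = 0.0477, and 0.956 after rescaling). The receptor chains Ifngr1 and Il10rb fell on both scales, Ifngr1 to 4.04 ± 0.158 RPKM at P9 against 9.58 ± 0.286 RPKM at E15 (limma adjusted p = 4.79e-05) and Il10rb to 1.20 ± 0.305 against 3.23 ± 0.835 RPKM (limma adjusted p = 0.00181). The chains of the type I receptor, Ifnar1 (8.69 ± 0.329 against 15.6 ± 3.37 RPKM) and Ifnar2 (3.30 ± 0.202 against 6.44 ± 0.374 RPKM), fell on the deposited scale and did not pass after rescaling (adjusted p = 0.203 and 0.246). Stat2, Irf9, Ifnar1 and Ifnar2 are named outside the naming rule, for their role in the pathway and with their values known.

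Of 9 tested inhibitors of interferon signalling, 2 rose and 6 fell in P9 minus E15, beside 8.65% and 55.4% of all genes. Their median was -0.48, near the -0.54 over all genes. After rescaling 2 rose and 0 fell, beside 20.6% higher and 20.6% lower over all genes. Those that rose were Nlrc5, with 27.6 ± 2.81 RPKM at P9 against 3.55 ± 1.52 RPKM at E15 (a log2 fold change of 2.69 ± 0.199, limma adjusted p = 5.77e-06), and Trex1, with 49.8 ± 1.67 against 9.47 ± 1.14 RPKM (2.28 ± 0.137, limma adjusted p = 2.08e-06). Nlrc5 is better known as the transactivator of MHC class I genes, and Trex1 is the exonuclease that degrades cytosolic DNA and so keeps the cGAS-STING pathway quiet. Trex1 averaged 9.47, 21.9, 38.5, 63.0, 73.0 and 49.8 RPKM and Nlrc5 3.55, 7.98, 15.5, 29.0, 27.8 and 27.6 RPKM from E15 to P9. Both were already higher in E18 minus E15, with limma adjusted p = 0.00137 for Trex1 and 0.013 for Nlrc5. Rsad2 did not pass there (limma adjusted p = 0.379), although its pools were apart and its mean was 2.61-fold higher at E18. Its low values are compressed by log2(RPKM + 1), and an order in time between these genes was not tested. The annotation places Trex1 within the overlapping readthrough gene Atrip-trex1, so part of its value may belong to that transcript. Ptpn1, a phosphatase acting on Janus kinases, fell to 4.92 ± 1.02 RPKM at P9 against 10.1 ± 3.53 RPKM at E15 (limma adjusted p = 0.00623, and 0.158 after rescaling).

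Sensors and adaptors numbered 10 tested genes, of which 0 rose (0 also at an unadjusted p below 0.05) and 4 fell in P9 minus E15, beside 55.4% lower over all genes, with a median of -0.27. After rescaling 3 of them rose and 1 fell, beside 20.6% higher and 20.6% lower over all genes. Tmem173, which encodes STING, fell on both scales, to 0.393 ± 0.117 RPKM at P9 against 1.38 ± 0.112 RPKM at E15 (limma adjusted p = 0.00233). Tbk1 and Mavs fell on the deposited scale, with log2 fold changes of -0.55 and -0.43 (limma adjusted p = 0.00199 and 0.0201), and had 0.04 and 0.15 after rescaling. Among 7 tested interferon regulatory factors, 0 rose (0 also at an unadjusted p below 0.05) and 4 fell, with a median of -0.50, near the 55.4% lower and the median of -0.54 over all genes. After rescaling 1 of these factors rose and 1 fell, beside the same 20.6% higher and 20.6% lower over all genes. Irf3 fell on both scales, to 6.23 ± 0.0247 RPKM at P9 against 15.2 ± 2.15 RPKM at E15 (limma adjusted p = 0.000256). Irf5 and Irf8 fell on the deposited scale, by 0.80 and 0.60 (limma adjusted p = 0.00211 and 0.0344), and did not pass after rescaling (0.182 and 0.168).

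Of 3 tested genes for joining ISG15 to proteins, 0 rose (0 also at an unadjusted p below 0.05) and 1 fell in P9 minus E15, beside 8.65% and 55.4% of all genes. Their median was -0.40 beside -0.54 over all genes. The gene that fell was Ube2l6, the conjugating enzyme, with 4.83 ± 0.467 RPKM at P9 against 8.69 ± 1.27 RPKM at E15 (limma adjusted p = 0.00207, and 0.303 after rescaling). Of 9 tested antigen presentation genes, 2 rose and 3 fell in P9 minus E15, beside the same 8.65% and 55.4%, with a median of -0.49. After rescaling 3 rose and 2 fell, beside 20.6% higher and 20.6% lower over all genes. B2m, the light chain of MHC class I, fell to 15.2 ± 3.83 RPKM at P9 against 37.9 ± 9.66 RPKM at E15 (limma adjusted p = 0.0023), and Psme1, a proteasome activator subunit, to 33.9 ± 0.360 against 69.0 ± 0.0438 RPKM (limma adjusted p = 2.34e-05). H2-Eb1, an MHC class II chain, rose to 1.72 ± 0.774 RPKM at P9 against 0.367 ± 0.168 RPKM at E15 (limma adjusted p = 0.00218).

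The ligands were at or near 0. Of 21 interferon genes in the tables, 17 were listed at 0 in all 12 libraries, 3 were above 0 in 1 library each and 0 passed the filter. Ifnz was above 0 in 7 libraries, at most 0.064 RPKM. All 6 interferon-induced chemokines in the tables were also under the filter.

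**Figure D3:**
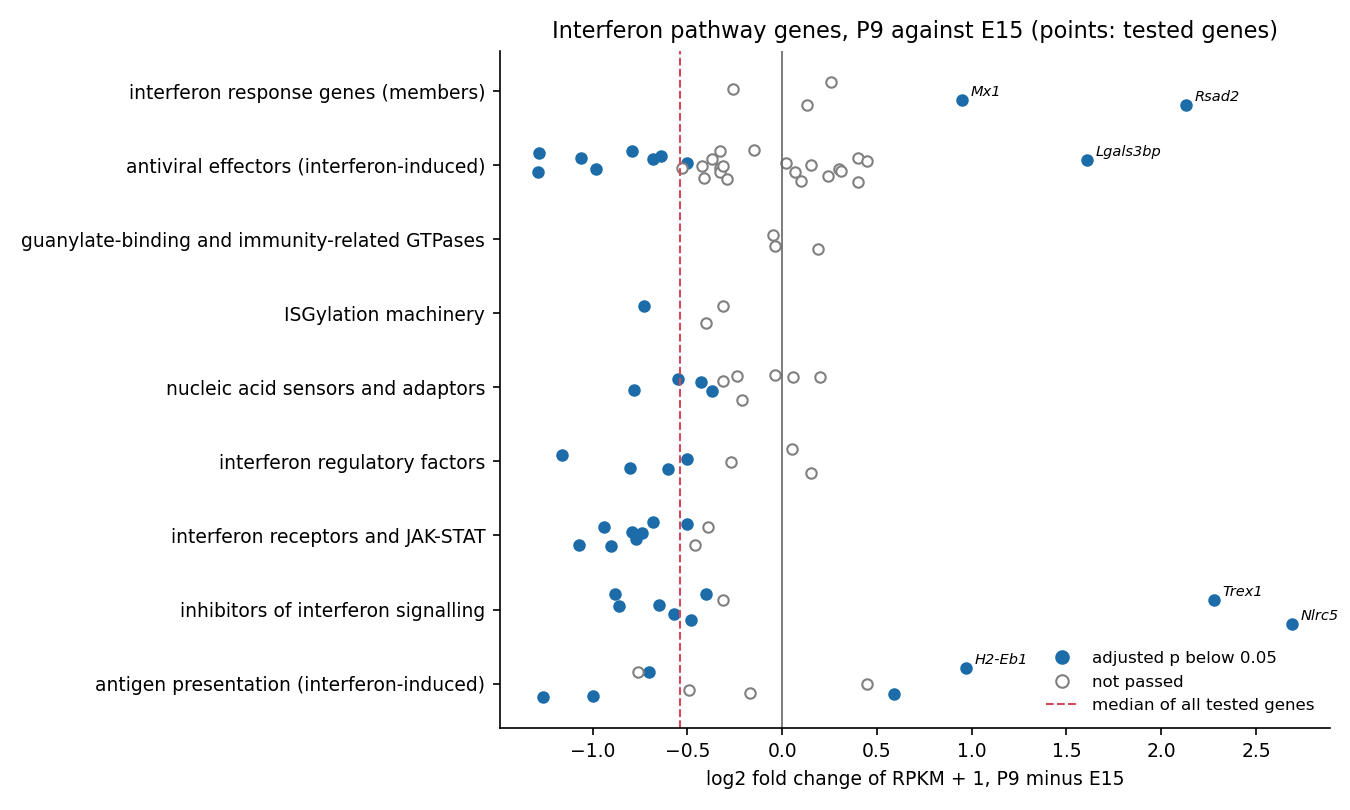
Differences of log2(RPKM + 1), P9 minus E15, of tested genes of the interferon response set and of the pathway lists; filled points have a limma adjusted p below 0.05 and the dashed line is the median of all tested genes, -0.54. Nlrc5 (2.69), Trex1 (2.28), Rsad2 (2.13) and Lgals3bp (1.61) stand farthest to the right.

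**Figure D4:**
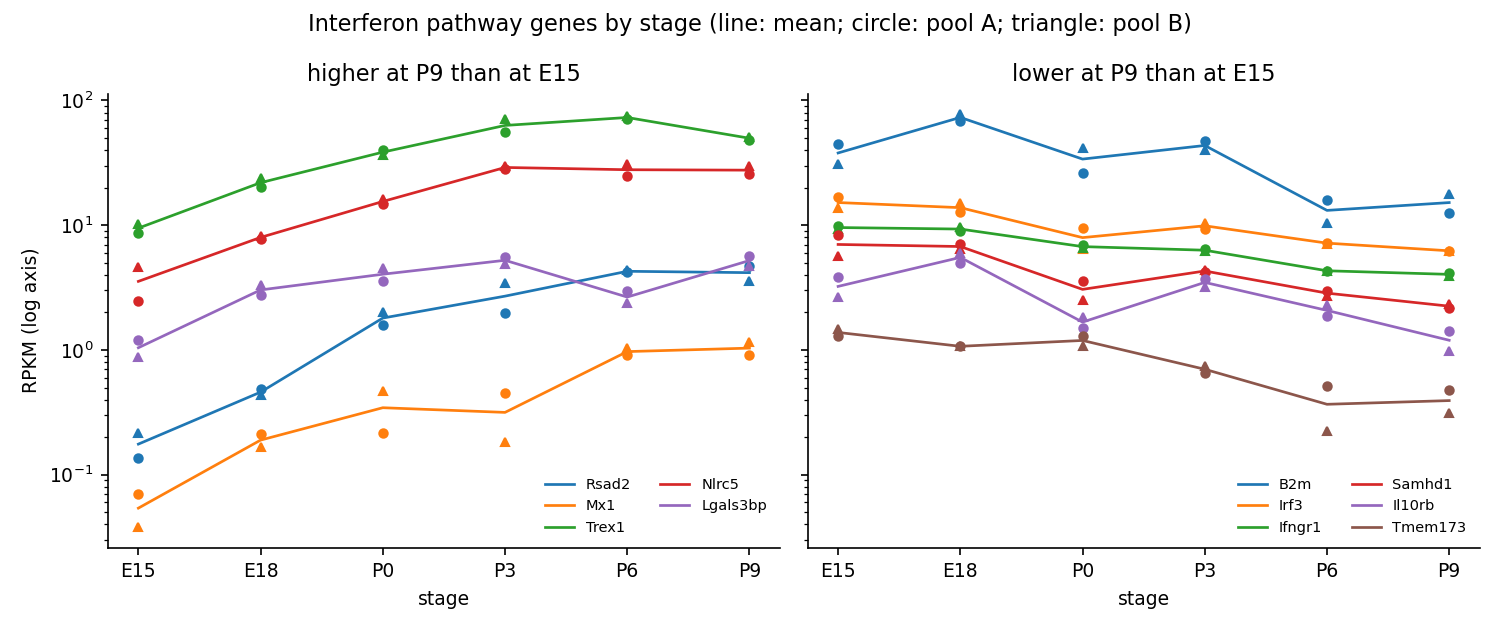
RPKM on a log axis at the 6 stages for named pathway genes that were higher (left) or lower (right) at P9 than at E15, both as deposited and after median-ratio rescaling; lines join means, circles are pool A and triangles pool B. Rsad2 averaged 4.17 RPKM at P9, against 0.176 RPKM at E15.

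Markers of other eye and blood cells also moved between these ages. The 7 pigment markers summed to 29.0, 130.5, 114.0, 79.1, 19.7 and 19.9 RPKM from E15 to P9. They were higher at E18, P0 and P3 than at the other stages, as Ifit3 was. Their lowest mean was at P6, whereas that of Ifit3 was at E15. In E18 minus E15, where Ifit3 rose, 5 of 5 tested pigment markers rose (beside 5.48% of all genes), and in P9 minus P0, where Ifit3 fell, 5 of 5 fell (beside 9.00%); per pool they summed to 122.7 and 138.2 RPKM at E18, against 35.5 and 22.4 RPKM at E15. The 13 macrophage marker names summed to 77.0, 134.5, 34.5, 65.2, 9.98 and 8.73 RPKM from E15 to P9, and 5 of 12 tested rose in E18 minus E15 and 0 fell. Adgre1 and Emr1 on that list are names of the same gene, so it enters the macrophage sums and counts under both. In P0 minus E18, where Ifit3 was called lower on the deposited scale, 0 of 5 pigment markers rose and 0 fell. In that comparison 12 of 12 tested macrophage marker names fell, beside 45.1% of all genes. The 10 endothelial markers summed to 123.9, 182.7, 87.4, 76.3, 55.8 and 39.8 RPKM. The part of these cells in the level of Ifit3 and Irf7 was not tested.

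Several of these marker lists were lower at P9 than at E15, the comparison in which Rsad2 and Mx1 rose. In P9 minus E15, 12 of 12 tested macrophage marker names (Adgre1 under both its names), 8 of 10 endothelial markers and 5 of 5 tested neutrophil markers fell, beside 55.4% of all genes. The neutrophil markers summed to 82.3 and 164.8 RPKM in the E15 pools and to between 0.967 and 1.19 RPKM in the P6 and P9 pools. Erythroid markers had mean sums of 4552, 1944 and 108.1 RPKM at E15, E18 and P9. For cornea and conjunctiva markers these were 17.6, 3.17 and 0.478 RPKM. The plasmacytoid dendritic cell markers, from the cell type best known for releasing interferon, summed to 5.85, 11.2, 8.68, 7.27, 4.58 and 4.02 RPKM from E15 to P9. Most of that sum was Bst2, also listed here as an antiviral effector, so it is largely the course of that gene. Bst2 averaged 5.11 RPKM at E15, 10.1 RPKM at E18, 8.28 RPKM at P0 and 3.79 RPKM at P9. Of the 7 lymphocyte markers, Cd3e and Ncr1 were listed at 0 in all libraries. Of the lens markers, 11 of 14 rose and 2 fell in P9 minus E15, and of the photoreceptor markers 9 of 10 rose and 1 fell, beside 8.65% of all genes higher. In P9 minus P0, where Rsad2 and Mx1 were also called higher, 1 of 14 lens markers rose and 1 fell, and 9 of 10 photoreceptor markers rose, beside 2.65% of all genes higher. The photoreceptor markers summed to 57.1, 85.2, 19.97, 53.9, 60.9 and 241 RPKM from E15 to P9, with 145.2 and 337 RPKM in the P9 pools. In P0 minus E18, where Rsad2 rose, 12 of 14 lens markers rose, beside 7.72% of all genes, and 0 of 10 photoreceptor markers rose and 2 fell. The part of lens and photoreceptor cells in the rise of Rsad2 and Mx1 was not tested.

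**Figure D5:**
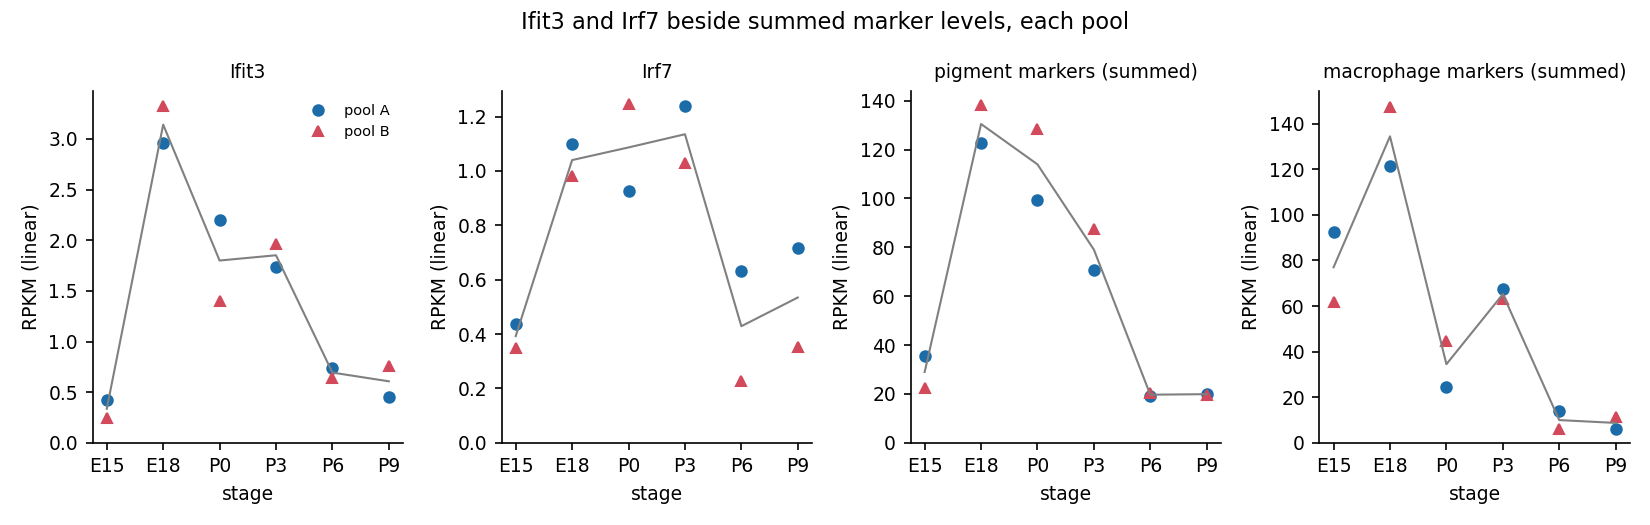
RPKM (linear vertical axes that start at 0) of Ifit3 and Irf7 and the summed RPKM of the pigment and macrophage marker lists in each pool; circles are pool A, triangles pool B, lines join means. Ifit3, pigment markers (130.5 RPKM) and macrophage markers (134.5 RPKM, with Adgre1 counted under both its names) all had their highest mean at E18.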

How the data were processed

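RNA was measured in 12 mRNA libraries, 2 pools at each of 6 stages; 12 small-RNA libraries of the same series were not used here. The authors deposited 1 table per library with 1 value per gene. Their unit, not given in the sources used here, was taken from the deposited values themselves as RPKM: 70.3% to 79.6% of low values were whole multiples of 1 read within 0.1 read, where chance gives 20%. Bowtie 0.12.8, SAMtools 0.1.18 and the build GRCm38/mm10 were used, per the submitters' processing notes. The counting of reads on several genes, and the use of strand, are likewise not stated.

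Values were taken as log2(RPKM + 1) for the 14405 genes of at least 1 RPKM in at least 2 libraries. One limma model (3.58.1, R 4.3.3) with stage as a factor of 6 levels, an intensity trend and 6 residual degrees of freedom was fitted, with Benjamini-Hochberg adjustment over all tested genes and calls at an adjusted p below 0.05. The procedure was tested on simulated data. Python 3.11.15, pandas 2.3.3, numpy 2.4.6 and matplotlib 3.10.9 read the tables, searched promoters and drew plots. Alternatives were pseudocounts of 0.1 and 0.5, no filter, median-ratio rescaling, quantile normalization, a replicate block, no trend, and leaving out each pool or both E15 pools. No library pair was identical. The genes, the pathway and marker lists and the comparisons were chosen with earlier results of these data known. Named from each list were up to 3 called genes with the largest change in P9 minus E15, or the most abundant gene where none was called; genes named outside that rule are marked. A result on 1 listed gene is not reported here. Depth was estimated from the deposited values and not from reads, so read numbers are approximate and cover counting error only.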

Additional observations from a re-analysis of the deposited data

How the results depend on the processing

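Of 254 recomputed fold changes of the 7 genes, 223 kept their direction and their side of the threshold, 26 lost a call, 3 gained one and 2 turned direction. The calls of Rsad2 and Mx1 in P9 minus E15 and in the postnatal minus the embryonic mean, of Rsad2 in P0 minus E18 and of Ifit3 in E18 minus E15 held under every alternative run. In P9 minus P0 the count of genes called higher, 2, was 1 with a pseudocount of 0.1 or 0.5 and 1 with the replicate block, and 0 to 2 when single pools were left out; the count called lower, 1, was then 0 to 1. In P0 minus E18 the count called lower, 1, was 0 with a pseudocount of 0.1, 0 after median-ratio rescaling and 0 after quantile normalization, and 0 to 1 without single pools. In P6 minus P3 the count called higher, 0, was 1 after quantile normalization and 1 without both E15 pools, the count called lower, 0, was 1 without both E15 pools, and each was 0 to 1 without single pools. With the replicate block Mx1 in P9 minus P0 had a limma adjusted p of 0.0675, and no other call of these genes changed. Over 15 pairs of stages, deviations of same-letter pools correlated between -0.25 and 0.21, above 0.1 in 2 pairs. These values do not settle whether same-letter pools share more than a name, and the labels do not say. Ifit3 in P9 minus E15, 0.26 on the log2 scale, was 0.47 after rescaling and 0.47 after quantile normalization (limma adjusted p = 0.0489 and 0.0362). Without single pools, Isg15 in P9 minus E15 ranged between -0.52 and 0.01 (0.01 without E15 pool A) and Irf7 between -0.04 (without P9 pool A) and 0.30. Among the named list genes in P9 minus E15, Irgm1 turned to 0.22 after rescaling, 0.20 after quantile normalization and ranged between -0.19 and 0.09 without single pools (0.09 without E15 pool A). Tbk1 turned to 0.04 and 0.02 and Mavs to 0.15 and 0.08 under the 2 scalings. Of 304 recomputed list counts, 269 stayed within 1.5 times; 10 moved after median-ratio rescaling, 11 after quantile normalization and 14 without single pools. The scalings change the median of all genes by construction; other causes were not tested. With 2 pools a stage and levels near or under 1 RPKM, small changes between single ages of Isg15 and Irf7 were not detectable, and Ifit1 and Ifih1 were tested only without the filter.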
